A study of Mus musculus with 12 samples.

Results

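Synj2, which encodes the inositol phosphatase synaptojanin 2, and 6 further inositol phosphatase genes, Synj1, Inpp5b, Inpp5d, Inppl1, Inpp4a and Inpp4b, were followed over 12 arrays labelled as cultured mouse mast cells, of which 4 were low in mast cell markers. The 7 genes are 7 of 19938 genes named by 1 symbol each, and each has 1 probe set. The set was chosen by measured values: Synj2 had the lowest p of all genes for the genotype at 2 weeks, so the values of that comparison are a description and carry no test here, and the other 6 were added as its relatives. The next gene in that order, the immunoglobulin heavy chain gene Ighg3, differed by 3.48 ± 0.61 (SE), against -1.09 ± 0.13 for Synj2. The labels give bone marrow derived mast cells, grown from the leg bone marrow of female mice aged 4 to 6 weeks with stem cell factor and interleukin 3. There were 4 groups of 3 arrays, namely wild type C57BL/6 and ACKR2-/- (D6-/-, also labelled C57BL/6) cells at 2 weeks and at 10 weeks of culture. ACKR2 is a chemokine receptor that takes up inflammatory CC chemokines without the usual signalling. The protocols also mention a CD117 (KIT) column step for part of the 2-week material and do not say for which arrays. The labels call the arrays biological replicates but name no animal or culture, so the p-values below measure the spread between these samples only. All values are log2 signals, and a difference of 1 is a 2-fold change.

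Phosphoinositides are membrane lipids whose inositol ring carries phosphates at changing positions. PI3 kinase makes PIP3, which recruits kinases such as BTK and AKT to the membrane, and in mast cells this step follows the binding of stem cell factor to KIT or of antigen to receptor-bound IgE. The phosphatases studied here take phosphates off again. The SHIP enzymes (Inpp5d, Inppl1) act on PIP3, the INPP4 enzymes (Inpp4a, Inpp4b) act on the lipid that SHIP leaves, and the synaptojanins (Synj1, Synj2) and INPP5B act mainly on the lipid PIP2, in endocytosis and membrane traffic.

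The windows around the annotated start of 4 members are shown because the data bear on them in different ways. Synj2 set the choice of genes, Inpp4a and Inpp4b are close relatives whose signals moved in opposite directions, and Inpp5d is the member known for its restriction to blood cells. The sequences come from RefSeq (GRCm38.p6), which held 12 windows of the 7 genes, from 250 bases before to 50 bases after a start, and the first listed window of each gene is given 5′ to 3′. Capitals mark matches, on either strand, to GATAA (bound by factors of the GATA family), CATGTG and the similar CACGTG (the MITF E-box), GGAAGT (an ETS site), GGGCGG (the GC box), TGACGTCA (the cAMP response element) or TATAAA (the box of that name).
Synj2, chr17:5975330-5975629, plus strand: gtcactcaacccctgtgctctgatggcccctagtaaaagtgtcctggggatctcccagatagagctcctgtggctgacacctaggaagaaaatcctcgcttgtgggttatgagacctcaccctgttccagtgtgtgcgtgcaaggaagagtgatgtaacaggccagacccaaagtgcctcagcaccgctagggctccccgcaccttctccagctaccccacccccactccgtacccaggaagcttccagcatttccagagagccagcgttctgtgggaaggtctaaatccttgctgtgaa
Inpp4a, chr1:37299588-37299887, plus strand: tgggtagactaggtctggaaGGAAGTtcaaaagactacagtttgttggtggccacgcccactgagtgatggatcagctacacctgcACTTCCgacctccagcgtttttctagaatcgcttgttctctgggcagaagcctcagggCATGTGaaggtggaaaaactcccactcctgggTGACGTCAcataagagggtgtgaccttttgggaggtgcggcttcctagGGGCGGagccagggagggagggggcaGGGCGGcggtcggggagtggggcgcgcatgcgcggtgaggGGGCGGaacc
Inpp4b, chr8:81342312-81342611, plus strand: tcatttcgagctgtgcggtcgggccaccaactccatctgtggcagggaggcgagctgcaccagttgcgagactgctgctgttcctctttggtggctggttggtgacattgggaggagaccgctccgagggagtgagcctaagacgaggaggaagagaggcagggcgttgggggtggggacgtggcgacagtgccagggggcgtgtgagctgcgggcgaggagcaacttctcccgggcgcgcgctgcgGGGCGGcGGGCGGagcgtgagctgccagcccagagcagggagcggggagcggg
Inpp5d, chr1:87620062-87620361, plus strand: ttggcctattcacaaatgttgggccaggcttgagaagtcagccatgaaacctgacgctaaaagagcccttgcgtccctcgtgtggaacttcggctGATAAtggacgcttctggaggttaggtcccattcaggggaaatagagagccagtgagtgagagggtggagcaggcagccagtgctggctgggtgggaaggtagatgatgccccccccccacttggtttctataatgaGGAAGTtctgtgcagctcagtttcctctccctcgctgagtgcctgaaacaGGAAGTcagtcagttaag
The Synj2 window held none of these letters. The Inpp5d window held 1 GATA and 2 ETS matches, which 25.4% and 23.8% of all 32851 windows of this length have at least once. The Inpp4a window held 3 GC boxes, 2 ETS matches, 1 MITF E-box and 1 cAMP response element, and the Inpp4b window held 2 GC boxes only. GC boxes stood in 35.7%, the E-box CATGTG in 14.2%, CACGTG in 7.15%, TATAAA in 13.6% and the cAMP response element in 1.79% of all windows. The G and C content was 56% in the Synj2, 60% in the Inpp4a, 68.3% in the Inpp4b and 53.7% in the Inpp5d window, against a median of 52.7% over all windows. No match says only that these letters are absent from this window.

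The groups hold arrays that go against their labels. Wild type 2-week array 3 and all 3 ACKR2-deficient 2-week arrays, called the 4 mast-marker-low arrays below, averaged 6.79 to 6.93 over 11 mast cell markers, against 11.57 to 12.45 on the other 8, and all 11 markers were lower on each of the 4. Fcer1a, a chain of the IgE receptor, read 4.83 to 5.47 against at least 13.74. All 9 B cell markers and 9 of 11 T and NK cell markers were higher on the 4, with list averages of 9.57 to 12.52 against 6.55 to 7.05 and of 8.91 to 11.52 against 6.64 to 7.27. Monocyte and macrophage markers averaged 10.79 to 11.13 against 7.08 to 10.31, with 6 of 12 higher on each of the 4. Among the 4, array 3 of the ACKR2-deficient group had both the top B cell average (12.52) and the bottom average for T and NK cells (8.91). The labels give female mice, but the X inactivation transcript Xist read at most 6.23 on the 4 and at least 13.00 on the 8, and the Y-linked Kdm5d read 10.06 to 10.51 on the 4 and 6.04 to 6.42 on the 8. Whether samples were exchanged cannot be told from these values. Ackr2 itself did not follow the labels. It read 8.19, 8.29 and 8.38 in wild type and 8.39, 7.79 and 9.43 in ACKR2-deficient cells at 2 weeks, the last being the highest of all 12. At 10 weeks it read 7.88, 8.26 and 8.35 in wild type and 8.35, 8.16 and 8.25 in ACKR2-deficient cells, a difference of 0.08 ± 0.32 (limma adjusted p = 0.999 after Benjamini-Hochberg adjustment). Whether its probes lie in the deleted part was not examined, so this neither bears out nor refutes a label. Groups are therefore named by what the arrays are labelled. The parts of cell composition and of the difference in sex-linked genes in the results below were not tested. In such bulk RNA, fewer cells of a type and less RNA per cell cannot be told apart.

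Synj2, whose product trims phosphoinositides on membranes during clathrin-dependent uptake and is known as a partner of the GTPase RAC1, was low at 2 weeks in the group labelled ACKR2-deficient and near one level everywhere else but on 1 array. It read 9.22, 9.20 and 8.73 on the wild type 2-week arrays and 8.005, 7.92 and 7.95 in ACKR2-deficient cells at 2 weeks. At 10 weeks it read 9.23, 9.05 and 9.12 on the wild type and 9.13, 8.98 and 8.99 on the ACKR2-deficient arrays. The 2-week groups did not overlap, the 3 ACKR2-deficient arrays lay close together, and wild type array 3 stood between them and all other arrays. The means were 9.05 ± 0.28 and 7.96 ± 0.04 at 2 weeks and 9.13 ± 0.09 and 9.03 ± 0.08 at 10 weeks (SD, n = 3). In order, wild type at 10 weeks, wild type at 2 weeks and ACKR2-deficient at 10 weeks overlapped one another, and ACKR2-deficient at 2 weeks was below all of them. The difference at 2 weeks was -1.09 ± 0.13 (SE), a 2.13-fold lower signal, and -1.25 without wild type array 3.

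Synj1, which encodes the synaptojanin best known for uncoating synaptic vesicles, read 10.28, 10.29 and 9.90 on the wild type 2-week arrays and 9.80, 9.82 and 9.13 in ACKR2-deficient cells at 2 weeks. At 10 weeks it read 10.19, 10.08 and 9.86 on the wild type and 10.25, 10.14 and 10.24 on the ACKR2-deficient arrays. ACKR2-deficient 2-week array 3 was the lowest of all 12, and the other 3 mast-marker-low arrays lay close to wild type 10-week array 3. Inpp5b, whose product works on Golgi and endosomal membranes as a relative of the Lowe syndrome protein OCRL, read 10.65, 10.69 and 9.97 in wild type and 10.00, 10.01 and 9.33 in ACKR2-deficient cells at 2 weeks. It read 10.44, 10.32 and 10.34 on the wild type and 10.76, 10.74 and 10.68 in ACKR2-deficient cells at 10 weeks. Array 3 of the ACKR2-deficient 2-week group was again the lowest, 0.67 below the mean of its 2 companions, as it was by 0.68 for Synj1.

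Inpp5d encodes SHIP1, a brake on mast cell degranulation that the inhibitory IgG receptor recruits. It read 13.11, 13.12 and 11.57 in wild type and 11.56, 11.63 and 12.34 in ACKR2-deficient cells at 2 weeks. At 10 weeks it read 12.89, 12.66 and 12.75 on the wild type and 13.09, 12.91 and 12.84 on the ACKR2-deficient arrays. The B-cell-marker-rich array 3 of the ACKR2-deficient 2-week group was thus 0.75 above its companions, the opposite of Synj1 and Inpp5b. Inppl1, which encodes the broadly expressed SHIP2, read 9.55, 9.69 and 8.68 in wild type and 8.63, 8.60 and 8.72 in ACKR2-deficient cells at 2 weeks. It read 9.64, 9.60 and 9.66 on the wild type and 9.56, 9.56 and 9.39 in ACKR2-deficient cells at 10 weeks. Its 4 mast-marker-low arrays lay between 8.60 and 8.72 and its other 8 arrays between 9.39 and 9.69.

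The INPP4 genes, whose products remove the phosphate at position 4 of the lipid left by SHIP, ran in opposite directions. Inpp4a read 8.43, 8.72 and 10.26 in wild type and 10.27, 10.27 and 9.75 in ACKR2-deficient cells at 2 weeks. At 10 weeks it read 8.64, 8.82 and 8.64 on the wild type and 8.60, 8.21 and 8.13 on the ACKR2-deficient arrays. Inpp4a was high on the 4 mast-marker-low arrays and low on the other 8. Inpp4b read 12.47, 12.37 and 11.46 in wild type and 11.27, 11.38 and 9.64 in ACKR2-deficient cells at 2 weeks. It read 12.39, 12.04 and 12.23 on the wild type and 12.54, 12.37 and 12.42 in ACKR2-deficient cells at 10 weeks. Inpp4b was high on the other 8 arrays and lowest, by 1.69 below its companions, on ACKR2-deficient 2-week array 3.

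**Figure D1:**
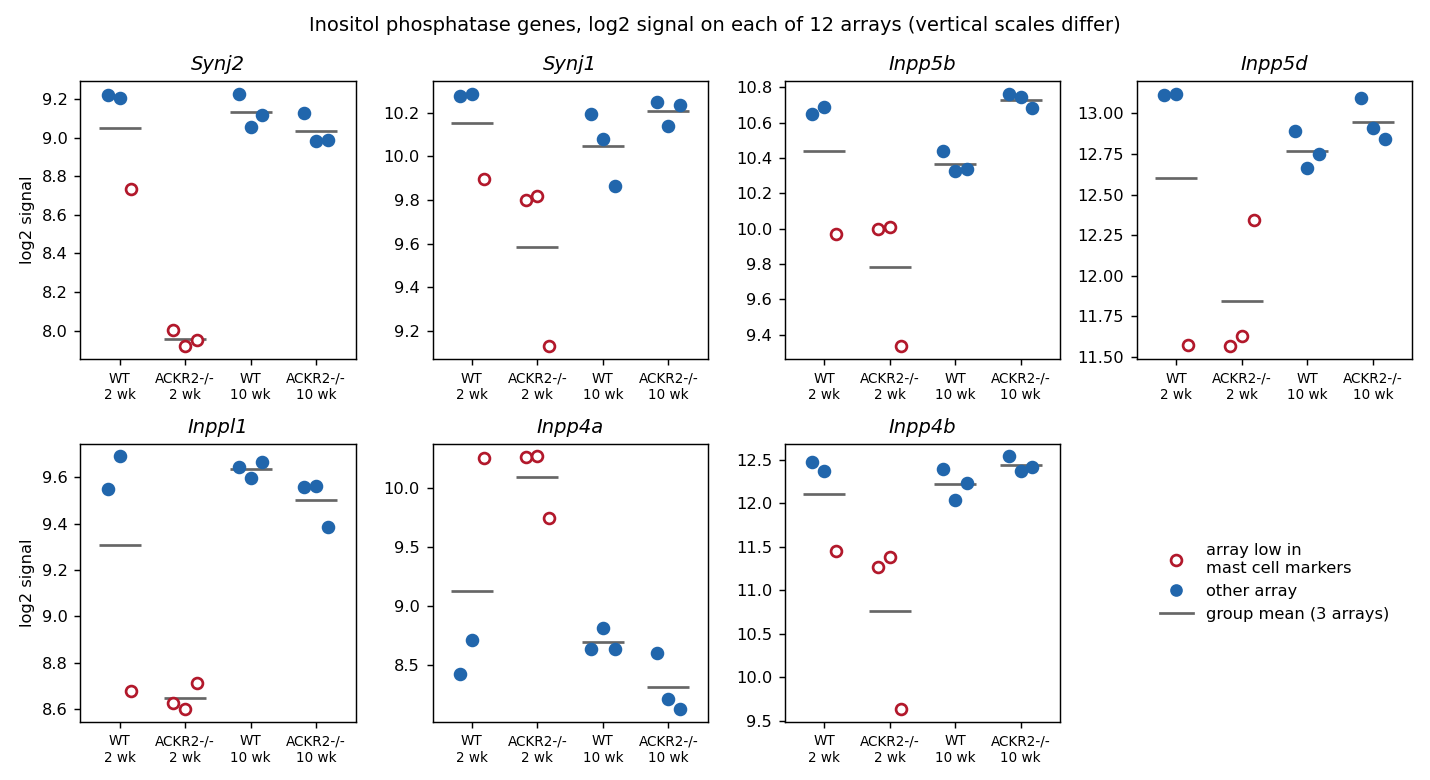
Log2 signal (vertical axis, a scale of its own per gene) of the 7 inositol phosphatase genes on each array, by genotype and week (horizontal axis); open red points are the 4 arrays low in mast cell markers, filled blue points the other 8, and bars the means of 3 arrays. Open and filled points separate for every gene but Synj1, with Inpp4a alone higher on the open points, and in Synj2 the open point of the wild type group stands above the 3 ACKR2-deficient ones.

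Of the 7 members, 5 (Synj2, Inpp5d, Inppl1, Inpp4b and Inpp5b) were lower on each of the 4 mast-marker-low arrays than on any of the other 8, Inpp4a was higher, and Synj1 overlapped. Over all genes 15% were lower and 11.8% higher in this way. The comparison that chose Synj2 holds these 4 arrays, so nothing is read from the place of Synj2 in this count. At 2 weeks 3 members, Synj1, Synj2 and Inpp4b, did not overlap between the labelled genotypes, all lower in the ACKR2-deficient group and none higher, against 8.6% of genes lower and 4.97% higher (13.6% in all). As this is the comparison that chose Synj2, nothing is read from that count. The other 2-week differences were -0.57 ± 0.19 for Synj1, -0.66 ± 0.22 for Inpp5b, -0.76 ± 0.37 for Inpp5d, -0.66 ± 0.21 for Inppl1, 0.96 ± 0.39 for Inpp4a and -1.34 ± 0.42 for Inpp4b (SE). The SE of Synj2 was the smallest of the 7 at 0.13, which a choice by lowest p favours, so nothing is read from it.

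Wild type 2-week array 3 shared its marker levels with the ACKR2-deficient 2-week arrays. Its Pearson r was 0.997 with array 2 of that group across genes, which are not independent replicates, and 0.89 with array 1 of its own group. This wild type array read 0.73, 0.81 and 0.78 above ACKR2-deficient arrays 1, 2 and 3 in Synj2. For the other 6 members its distance from arrays 1 and 2 was at most 0.19 in size, that of Inpp4b from array 1. It was above each of the ACKR2-deficient arrays in Synj1 and Inpp4b too, by 0.09 and 0.19 over array 1 and 0.08 and 0.08 over array 2. From array 3 it differed by 0.77 in Synj1, 0.64 in Inpp5b, 0.51 in Inpp4a, 1.82 in Inpp4b, -0.77 in Inpp5d and -0.04 in Inppl1. Among all 19938 genes, 28 (0.14%) differed from array 2 by at least as much as Synj2 did, 41 (0.206%) from array 1 and 1609 (8.07%) from array 3, while the median size of a gene's difference was 0.09, 0.10 and 0.19. This sets single arrays side by side, has no replicate check, and rests on the contrast that chose Synj2. That choice favours a gene in which this wild type array lies away from the ACKR2-deficient ones, so nothing is read from these distances.

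**Figure D2:**
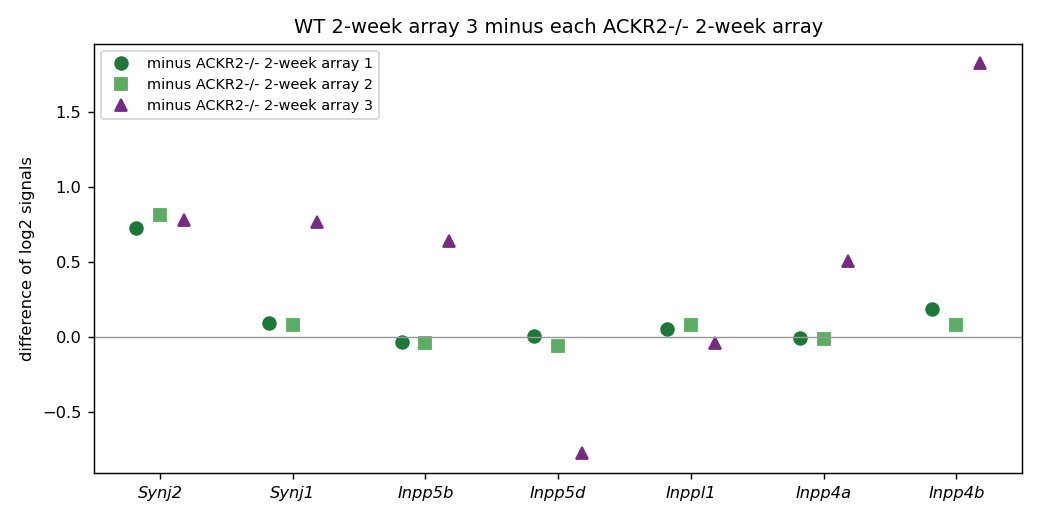
Difference of log2 signals (vertical axis) between wild type 2-week array 3 and ACKR2-deficient 2-week array 1 (circles), 2 (squares) and 3 (triangles) for each of the 7 genes (horizontal axis). In Synj2, chosen for its 2-week values, all 3 differences lie between 0.73 and 0.81. The other genes are near 0 against arrays 1 and 2 and spread from -0.77 to 1.82 against array 3.

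At 10 weeks no member passed the threshold between the genotypes. The choice of Synj2 did not use the means of these arrays, but their spread enters the error that all 12 arrays share. A choice by lowest p favours a small error, so the interval and p of Synj2 below are not independent of the choice. All 6 arrays of that week were high in mast cell markers, but the averages of some lists of other cells differed between the genotypes. The B cell, the T and NK cell and the fibroblast and stromal markers had median differences of only -0.09, -0.12 and -0.03. The average of 12 neutrophil markers was 9.08, 9.89 and 7.95 in wild type and 7.62, 6.89 and 6.74 in ACKR2-deficient cells, and that of 7 eosinophil and basophil markers was 9.77, 9.76 and 8.80 against 8.39, 7.10 and 6.96. Neither list overlapped between the genotypes, with median differences of -2.15 and -1.47, while 12 monocyte and macrophage markers had a median of -1.24 with overlapping averages, and none of these markers passed the threshold. Their part in the 10-week values below, those of Inpp5b, Inppl1 and Inpp4a and of the listed genes Ocrl and Dab2 included, was not tested. Limma called 0 of 19938 genes (0%) at an adjusted p under 0.05, with 1566 genes (7.85%) at an unadjusted p under 0.05 and 0 of the 7 members among them. Synj2 differed by -0.10 ± 0.13 (SE), with a 95% interval from -0.39 to 0.19 and a limma adjusted p of 0.954. It was not compared with the 2-week difference, which chose the gene. The largest differences were -0.38 ± 0.39 for Inpp4a (adjusted p = 0.910) and 0.36 ± 0.22 for Inpp5b (adjusted p = 0.762), and the others were 0.22 ± 0.42 for Inpp4b, 0.18 ± 0.37 for Inpp5d, 0.16 ± 0.19 for Synj1 and -0.13 ± 0.21 for Inppl1. Their median size was 0.18, against 0.13 over all genes. The arrays of the 2 genotypes did not overlap for 3 of 7 members, with Inpp5b higher and Inppl1 and Inpp4a lower in the ACKR2-deficient group, against 14.6% of genes (8.61% higher, 5.98% lower).

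The spread of the 2-week groups enters these errors, because the 12 arrays share 1 estimate. The 4 mast-marker-low arrays are all 2-week arrays and each group has its own mean. Leaving them out therefore cannot change the 10-week differences, only their errors, which shrank. The interval of Inpp5b then ran from 0.14 to 0.58 (unadjusted p = 0.00477, limma adjusted p = 0.243) and that of Inpp4a from -0.73 to -0.04 (unadjusted p = 0.0346, limma adjusted p = 0.344). That fit called 0 genes (0%) too, with 2567 (12.9%) at an unadjusted p under 0.05. The interval of Synj2 was -0.33 to 0.13. Among ACKR2-deficient 10-week arrays, array 1 had the highest Inpp4a (8.60 against 8.21 and 8.13). It also had the highest average of every cell type marker list. For monocytes and macrophages this was 9.50 against 7.08 and 7.41, with 8.88 to 10.31 on the wild type 10-week arrays. For neutrophils it was 7.62 against 6.89 and 6.74, and for eosinophils and basophils 8.39 against 7.10 and 6.96. Whether any of this bears on Inpp4a was not tested.

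From 2 to 10 weeks in the ACKR2-deficient group, 4 of the 6 members other than Synj2 rose, 1 fell and Inpp5d did not pass, against 10.5% of all genes higher and 6.33% lower (3358 of 19938, 16.8%). The 6 members share these 2-week arrays with the comparison that chose Synj2. Inpp4b rose by 1.68 ± 0.42, a 3.21-fold change (limma adjusted p = 0.0228), and Inpp4a fell by 1.78, a 3.43-fold change with an SE of 0.39 (adjusted p = 0.0155). Inpp5b rose by 0.95 ± 0.22 (adjusted p = 0.0174), Inppl1 by 0.85 ± 0.21 (adjusted p = 0.0239) and Synj1 by 0.63 ± 0.19 (adjusted p = 0.0465). Inpp5d differed by 1.10 ± 0.37 (adjusted p = 0.0666), with a 95% interval from 0.28 to 1.92. The median of the 6 differences was 0.90, against 0.06 over all genes. Synj2, given with no test, was 1.07 ± 0.13 higher at 10 weeks. The arrays of the 2 weeks did not overlap for any of the 7 members, 6 being higher and Inpp4a lower at 10 weeks, as for 44.5% of genes (26.7% higher, 17.7% lower). Synj2 is among those 6 and was chosen with these 2-week arrays, so nothing is read from its place in this count.

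The 2-week arrays of this comparison are all mast-marker-low and the 10-week arrays are not, and Xist and Kdm5d separate the same arrays. Culture time, cell composition and the sex of the source animals therefore cannot be told apart in it. Over the same arrays 8 of 11 mast cell markers rose, and 9 of 9 B cell, 5 of 11 T and NK cell and 8 of 12 monocyte and macrophage markers fell. The calls also depend on single arrays. Without ACKR2-deficient 10-week array 2 or array 3 limma called 0 genes and no member, without 10-week array 1 it called 2 members, and without 2-week array 1 or array 2 it called 2 members. Without ACKR2-deficient 2-week array 3, the array with the lowest Inpp4b, the rise of Inpp4b was 1.12. The differences themselves stayed near their size without 10-week array 2 or array 3, at -1.73 and -1.69 for Inpp4a, 1.72 and 1.69 for Inpp4b, 0.94 and 0.97 for Inpp5b, 0.82 and 0.91 for Inppl1 and 0.66 and 0.61 for Synj1, with larger errors. Synj1 lost its call under 14 of 20 alternatives, and Inpp5d passed under 3, among them the fit without wild type 2-week array 3 (adjusted p = 0.00139).

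**Figure D3:**
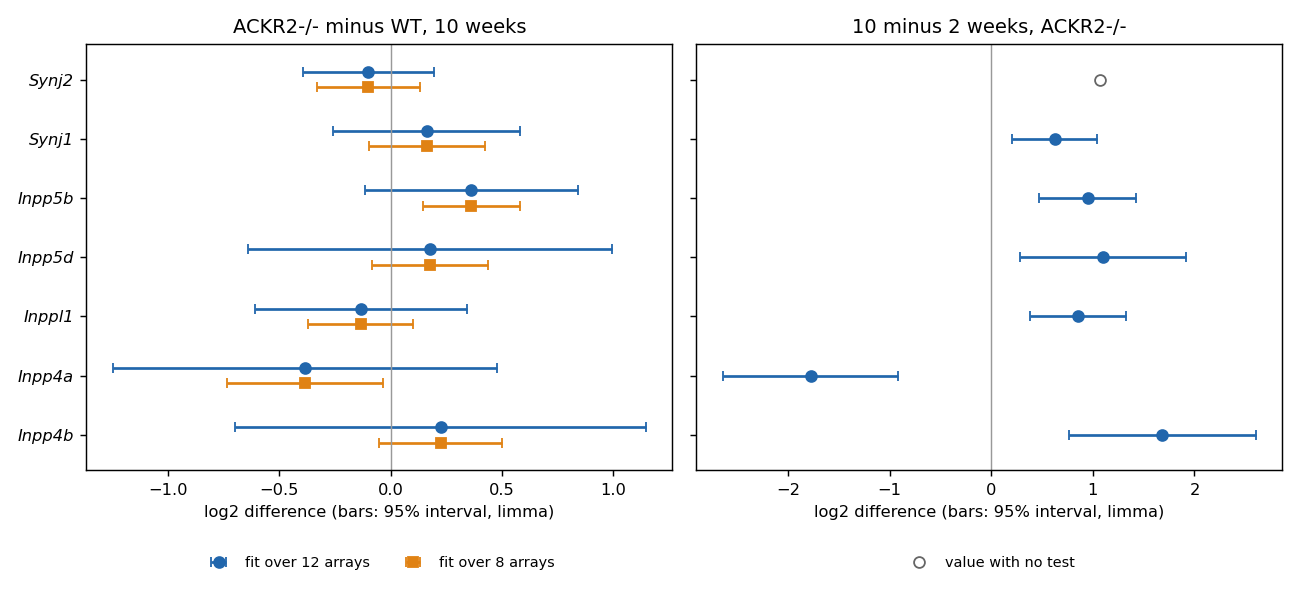
Log2 differences with 95% limma intervals (horizontal axis) for the 7 genes (vertical axis), on the left between the genotypes at 10 weeks over 12 arrays (circles) and over the 8 arrays high in mast cell markers (squares), on the right between 10 and 2 weeks in the ACKR2-deficient arrays, with Synj2 as an open point that has no test. On the left the differences are the same in both fits by construction, and Synj2 lies at -0.10. With 8 arrays the interval of Inpp5b alone is wholly above 0 and that of Inpp4a alone wholly below 0. On the right Inpp4a lies at -1.78 and the others between 0.63 and 1.68.

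In the arrays labelled wild type, no member passed between 2 and 10 weeks, and limma called 0 of 19938 genes (0%), with 1326 (6.65%) at an unadjusted p under 0.05 and 0 of 6 members among them. The differences ran from -0.43 ± 0.39 for Inpp4a to 0.33 ± 0.21 for Inppl1. None of the 7 members was free of overlap between the weeks, against 8.74% of genes (5.29% higher, 3.45% lower). These averages mix 2 arrays high and 1 array low in mast cell markers. Without the 4 mast-marker-low arrays, Inpp5d was 0.35 below its 2-week level at 10 weeks (-0.35 ± 0.13, unadjusted p = 0.0247, limma adjusted p = 0.625) and Inpp5b 0.30 below (-0.30 ± 0.11, unadjusted p = 0.0206, limma adjusted p = 0.614). Synj1 differed by -0.24 ± 0.13, and Inpp5d had changed sign from 0.17 ± 0.37 with all arrays. That fit also called 0 genes (0%), with 1424 (7.14%) at an unadjusted p under 0.05. Synj2, with no test, differed by 0.08 over all wild type arrays and by -0.08 without the 4 arrays.

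For the genotype by week interaction, which asks whether the change with time differed between the genotypes, limma called 0 of 19938 genes (0%), with 2271 (11.4%) at an unadjusted p under 0.05. The 6 members other than Synj2 ranged from -1.35 ± 0.55 for Inpp4a to 1.56 ± 0.59 for Inpp4b, all with a limma adjusted p of at least 0.424, and 4 had an unadjusted p under 0.05. Without wild type 2-week array 3, 3138 genes and 5 members passed. The wild type 2-week arrays left in that fit averaged 12.43 and 12.28 over the mast cell markers. The ACKR2-deficient ones averaged 6.79 to 6.93. Xist and Kdm5d separate these arrays too. A change with time that differs by genotype and a difference in cell composition or in the sex of the source animals cannot be told apart in it.

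The enzymes around these phosphatases were followed in lists of other phosphatases, kinases, effectors and endocytic partners. At 10 weeks no gene of any of the 4 lists passed between the genotypes. The lowest p among the other phosphatases belonged to the X-linked Ocrl, at 9.43, 8.90 and 8.68 on the wild type and 9.67, 9.93 and 10.19 in ACKR2-deficient cells at 10 weeks (0.93 ± 0.31, limma adjusted p = 0.530), and to Inpp5e, a phosphatase of the primary cilium (0.31 ± 0.10, adjusted p = 0.534). The arrays of the genotypes did not overlap for Ocrl, Inpp5e and the kinase gene Pip4k2a given below, and overlapped for the other genes named here. Over all genes 14.6% did not overlap. As these genes were named for their low p, nothing is read from that. The lowest p among the endocytic partners belonged to the clathrin adaptor Dab2 (-1.69 ± 0.60, adjusted p = 0.548) and the scaffold Itsn1 (0.50 ± 0.20, adjusted p = 0.582). Among the kinases it belonged to Pip4k2a (0.29 ± 0.09, adjusted p = 0.529) and Pik3r1, a regulatory subunit of PI3 kinase (0.37 ± 0.14, adjusted p = 0.559), and among the effectors to Pdpk1, which activates AKT (0.43 ± 0.19, adjusted p = 0.611), and Itpkc (0.32 ± 0.16, adjusted p = 0.667). The list medians lay between 0.05 and 0.12, against 0.0076 over all genes.

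Between 2 and 10 weeks in the wild type arrays none of the 4 lists had a member past the threshold either. The largest of the differences with the lowest p were -0.88 ± 0.30 for Itpkb, a kinase of inositol trisphosphate (limma adjusted p = 0.699), and -0.65 ± 0.38 for Inpp1 (adjusted p = 0.784). Pdpk1 differed by -0.64 ± 0.19 (adjusted p = 0.668), Pip4p2 by 0.62 ± 0.23 (adjusted p = 0.722), Ap2s1 by 0.59 ± 0.19 and Pik3r1 by -0.43 ± 0.14 (both adjusted p = 0.692), Dnm2 by -0.35 ± 0.13 (adjusted p = 0.714) and Pip4k2a by -0.24 ± 0.09 (adjusted p = 0.723). For the interaction, too, no list had a member past the threshold. The largest differences among the genes with the lowest p were 3.84 ± 1.38 for Dnm3, 2.50 ± 0.87 for Gab2, 2.01 ± 0.44 for Ocrl and -1.30 ± 0.43 for Itpr3, each with a limma adjusted p of 0.424.

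Between 2 and 10 weeks in the ACKR2-deficient arrays each of the 4 lists had some members that rose and some that fell, while most did not pass. As for the 7 members, the 2-week arrays here are all mast-marker-low and the 10-week arrays are not. Culture time, cell composition and the sex of the source animals cannot be told apart in these lists either, the X-linked Ocrl included. Over all genes 10.5% rose and 6.33% fell (16.8% in all), with a median difference of 0.058. Of 20 other phosphatases 3 rose, 3 fell and 14 did not pass, with a median difference of 0.0053. Ocrl read 8.14, 8.18 and 7.98 at 2 weeks and rose by 1.83 ± 0.31, Pip4p2, a lysosomal PIP2 phosphatase, rose by 1.06 ± 0.23, and Mtmr6 of the myotubularin family by 0.51 ± 0.16. Inpp5f, whose product is another enzyme with a Sac phosphatase domain, like the synaptojanins, fell by 1.65. It read 8.80, 8.89 and 9.90 at 2 weeks and 7.63, 7.34 and 7.67 at 10 weeks, highest on the B-cell-marker-rich array. Inpp1 fell by 1.28 and Mtmr4 fell by 0.70. For these 6 limma gave adjusted p values between 0.0137 and 0.0498.

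Of 24 phosphoinositide kinases 6 rose, 3 fell and 15 did not pass (median 0.13), against 10.5% and 6.33% of all genes that rose and fell (median 0.058). Pip5k1b, which makes PIP2, rose by 2.74 ± 0.83, Pik3r6, a regulatory subunit of the PI3 kinase gamma, by 2.38 ± 0.53, and Pi4k2b by 2.30 ± 0.68. Pik3r5, the other regulatory subunit of the same kinase, fell by 2.60, Pik3c2b fell by 2.56 and Pik3c2a fell by 2.21. Pik3r5 read 11.11, 11.12 and 9.88 at 2 weeks and 8.65, 7.77 and 7.91 at 10 weeks, and Pik3r6 read 7.92, 7.83 and 7.65 and then 9.48, 10.56 and 10.51. The pair thus ran in opposite directions, like Inpp4a and Inpp4b. On wild type 2-week arrays 1, 2 and 3, Pik3r5 read 9.05, 9.21 and 11.07 and Pik3r6 read 9.96, 9.97 and 7.71. Only array 3 of these is mast-marker-low. The limma adjusted p of the 6 named kinase genes lay between 0.0137 and 0.0466.

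Of 22 effectors and SHIP adaptors 3 rose, 3 fell and 16 did not pass (median 0.16), again against 10.5% and 6.33% of all genes. Gab2, an adaptor of PI3 kinase in IgE receptor signalling, rose by 3.20 ± 0.62, Akt1 by 0.74 ± 0.16 and Dok1 by 0.63 ± 0.18. The calcium channel gene Itpr3 fell by 1.75, Plekha2, which encodes a protein that binds the product of SHIP, fell by 1.44 and Itpkb fell by 1.18. Of 27 endocytic partners 6 rose, 3 fell and 18 did not pass (median 0.19), beside the same 16.8% of all genes called. Dnm3, a dynamin, read 6.20, 6.07 and 6.40 at 2 weeks and 10.68, 11.53 and 11.38 at 10 weeks, a rise of 4.98 ± 0.97. On wild type 2-week arrays 1, 2 and 3 it read 10.36, 10.93 and 6.07, the last being the mast-marker-low array. Pacsin2 rose by 1.19 ± 0.31 and Amph by 0.81 ± 0.23, while Pacsin1 fell by 1.90, Bin1, a relative of Amph, fell by 1.09 and Eps15 fell by 0.53. For these 12 genes limma gave adjusted p values from 0.0137 to 0.0401. As no gene was called without 10-week array 2 or 3 of this group, these counts fall to 0 as well.

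The 6 genes whose profile over the 12 arrays was nearest to that of Synj2 were found from the root mean square difference of log2 values after each gene was centred on its mean. They were Pink1, a mitochondrial kinase (0.17), Stx11, a syntaxin of granule release (0.18), Yaf2 (0.18), Tcn2, a cobalamin carrier (0.19), Fam76a (0.19) and Mib1, a ubiquitin ligase (0.19), where the SD of Synj2 itself was 0.52. Their signals were low on the same 4 arrays. On wild type 2-week array 3, Synj2 lay 0.06 below its mean, and the 6 genes lay between 0.34 below (-0.34, Stx11) and 0.58 below (-0.58, Tcn2). The rule that chose Synj2 favours a gene whose wild type 2-week arrays lie close together, so nothing is read from this array's values. Of the other members, Inppl1 was the nearest at 0.20, in place 15 of all other genes. The rest were further off, namely Inpp5b (0.29, place 530), Synj1 (0.31, place 823) and Inpp5d (0.35, place 1353). Inpp4b (0.47) was in place 6071 and Inpp4a (1.24) in place 19048.

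**Figure D4:**
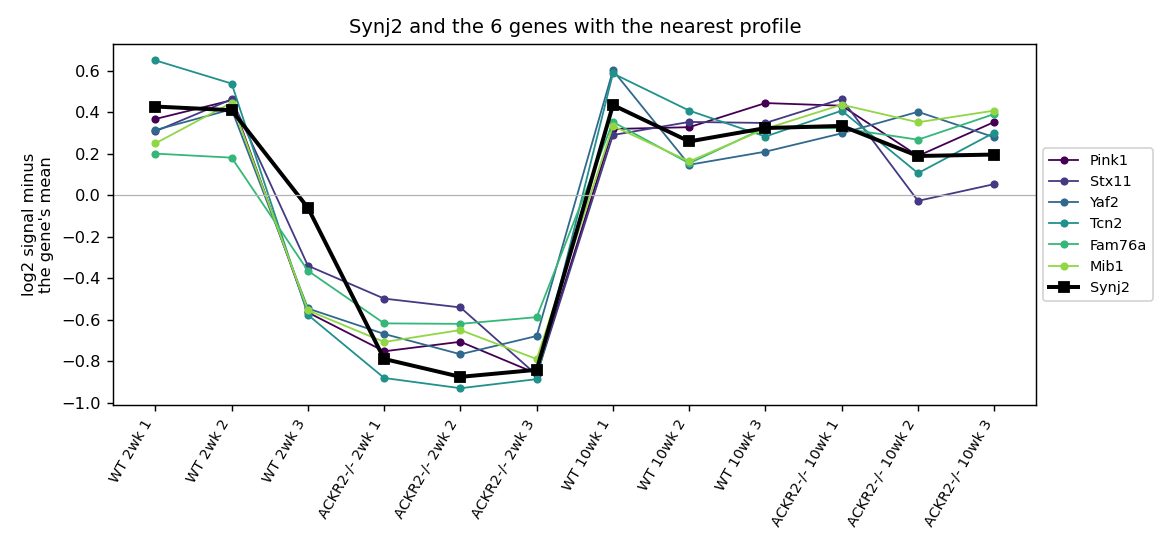
Log2 signal minus the gene's mean (vertical axis) on each of the 12 arrays (horizontal axis) for Synj2 (black squares) and the 6 genes nearest to it; lines only join the points of a gene. All 7 genes are low on the ACKR2-deficient 2-week arrays, and on wild type 2-week array 3 Synj2, chosen for its 2-week values, sits at -0.06 while the other 6 sit between -0.58 and -0.34.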

How the data were processed

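The deposited table holds 35399 probe sets on 12 single-colour arrays as log2 values. Per the submitters' processing notes, the authors used RMA and Partek 6.5; the range of the values (2.66 to 14.91, array medians 7.76 to 7.90) shows the scale. Such values carry no detection call, and scanner files, the genome build and batches were not used here. A platform annotation named 21789 probe sets by 1 symbol; 1621 with several and 11989 without were left out. The probe set with the highest mean stood for a gene.

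The members and lists were chosen with earlier results of these data known. Group means were fitted over 12 arrays and 19938 genes with limma 3.58.1 in R 4.3.3 (8 residual and 2.39 prior degrees of freedom), tested on simulated data, with Benjamini-Hochberg adjustment per comparison and a threshold of 0.05. Errors of differences are limma's SE. No p is given for the genotype at 2 weeks, or for Synj2 in any comparison that holds the 2-week arrays. Named besides the members are, per list and comparison, up to 3 called genes in each direction, or the 2 with the lowest p where none passed, the next gene by p at 2 weeks, and 6 genes near Synj2, leaving out predicted genes, small RNAs, receptor segments and olfactory genes. Some genes of the lists were not analysed here.

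Pairing by replicate number was examined through the arrays' deviations from group means. Only wild type at 2 and 10 weeks had all 3 same-numbered correlations over 0.1 (0.166 to 0.359). Alternatives left out each array, the 4 mast-marker-low arrays or dim genes, or changed the block, probe set, scaling, weights, variance moderation or groups fitted.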

Additional observations from a re-analysis of the deposited data

How the results depend on the processing

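The signs of all 7 members at 10 weeks, and of all 7 between the weeks in the ACKR2-deficient arrays and between the genotypes at 2 weeks, held under every alternative run, with Synj2 at 2 weeks between -1.25 and -1.01. Many of these alternatives leave the group means as they are and so cannot move a sign. Only leaving out an array of the groups compared, rescaling the values or weighting the arrays could do so. Leaving out single arrays gave 0 to 129 genes between the genotypes at 10 weeks (129 without ACKR2-deficient array 1, with 0 members), 0 to 4994 genes and 0 to 6 members between the weeks in the ACKR2-deficient arrays, and 0 to 3138 genes and 0 to 5 members for the interaction (5 without wild type 2-week array 3, and 29 genes without ACKR2-deficient 10-week array 1). Without ACKR2-deficient 2-week array 1 or 2 the weeks differed in 1514 or 1391 genes. Array weights gave 9550 genes between those weeks, and 4136 genes and 5 members for the interaction. The cause was not tested. In wild type, the change with time reversed for Inpp5d (-0.27 with array weights, -0.35 without the 4 mast-marker-low arrays), Inpp4b (-0.10 and -0.20), Synj2 (-0.043 and -0.079) and, without those 4 arrays, Inpp4a (0.13). Leaving out single arrays moved it from -0.35 to 0.43 for Inpp5d, -0.79 to 0.13 for Inpp4a, -0.20 to 0.31 for Inpp4b, -0.30 to 0.057 for Inpp5b and -0.079 to 0.16 for Synj2. With the replicate number as a block, limma called 2897 genes between the weeks in the ACKR2-deficient arrays, with 5 members, and 0 genes in the other comparisons; the same block with wild type arrays alone, chosen after seeing the data, gave 0. The block changed no call of a member. Signal over background could not be examined, and 3 arrays a group limit the precision.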
